A study of Rattus norvegicus with 9 samples.

Results

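The genes described here are the expressed non-coding RNA genes of cultured rat nucleus pulposus cells, which fill the soft centre of the discs between vertebrae. They are the rows typed as non-coding in a table of 22324 genes whose mean level reached 3 CPM (a gene's count scaled to its library's total, per 1000000 counts) in at least 1 of the 3 groups. The rule kept 209 of 4375 non-coding rows, and 11547 of 17949 protein-coding rows met the same level. Members were thus chosen by their mean CPM in these same libraries, and nothing is supported by that choice.

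The study measured poly(A) RNA of primary wild-type rat cells by RNA sequencing in 3 groups of 3 libraries. BNPMT cells had an intervention that the labels call BNPMT, without its full name, dose or timing, on top of the senescence model of the SEN cells. SEN cells had 200 nM doxorubicin, which breaks DNA, for 24 h and then 6 more days in fresh medium. NC cells are the control and are taken here as untreated, although their own protocol entry also describes doxorubicin. DMEM with high glucose and 10% serum was used for all. The labels do not say whether the 3 libraries of a group came from separate cultures or animals, so the tests measure only the spread between libraries, which may be technical.

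A long non-coding RNA (lncRNA) is a spliced transcript without a long reading frame, and such transcripts work in several ways. Some act as RNA on chromatin or on proteins, as Xist does when it coats and silences an X chromosome. Others are hosts, whose introns or exons are cut into small nucleolar RNAs (snoRNAs, which guide chemical modification of ribosomal RNA) or microRNAs (which bind target transcripts through bases 2 to 8, the seed). The spliced RNA of many snoRNA hosts carries a short reading frame and is broken down by nonsense-mediated decay during translation. Senescent cells have left the cell cycle for good while staying metabolically active, and doxorubicin does this by breaking DNA.

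Of the 209 members, 188 carry only a placeholder symbol (LOC and a number) and 21 another name. RefSeq's rat table for the assembly GRCr8 holds 160 of their gene IDs, of which it types 156 as lncRNA, 2 as protein-coding and 2 as pseudogenes. Its coordinates belong to another build than the mRatBN7.2 named for these files and were used only to see which genes lie inside or beside each other. A small RNA was left out where its strand and that of its host were both known and differed. Where either strand was not known, the small RNA was kept. By that position 13 members hold snoRNA genes and no microRNA gene, and 15 hold microRNA genes. Members had a median length of 3708 bases, from 335 to 85495, and lengths of protein-coding rows had a median of 3085 bases.

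The 15 microRNA hosts span 56 microRNA genes with 108 mature sequences. The mature sequences below belong to the hosts whose levels are described further on, with the seed in capitals. They come from RefSeq (GRCr8), are written 5′ to 3′, and stand for what the host could yield, since mature microRNAs were not measured.
rno-miR-675-5p (in H19): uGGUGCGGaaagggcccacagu
rno-miR-31a-5p (in LOC130062807): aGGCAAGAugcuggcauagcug
rno-miR-322-5p (in LOC102550366): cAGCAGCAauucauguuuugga
rno-miR-503-5p (in LOC102550366): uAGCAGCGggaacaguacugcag
rno-miR-221-3p (in LOC120099382): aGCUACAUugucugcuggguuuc
rno-miR-222-3p (in LOC120099382): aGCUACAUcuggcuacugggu
rno-miR-143-3p (in Carmn): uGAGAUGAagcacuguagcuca
rno-miR-145-5p (in Carmn): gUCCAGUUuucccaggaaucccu
rno-miR-34a-5p (in LOC103692514): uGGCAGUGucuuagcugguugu
rno-miR-155-5p (in Mir155hg): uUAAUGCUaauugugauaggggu
rno-let-7a-5p (in LOC120097935): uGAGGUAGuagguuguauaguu
rno-let-7d-5p (in LOC120097935): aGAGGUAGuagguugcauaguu
miR-221-3p and miR-222-3p share the seed GCUACAU, and the let-7 sequences share GAGGUAG. In all, 8 seeds occurred in more than 1 mature sequence within the members.

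For the snoRNA hosts, the bases around the annotated start of 4 members that differed between groups are shown, because hosts of this kind are known in mammals to begin with a pyrimidine-rich stretch. Capitals mark the first 25 transcribed bases of the RefSeq GRCr8 annotation, after 20 upstream bases in lower case, all on the plus strand.
Gas5 (chr13:75836943-75836987): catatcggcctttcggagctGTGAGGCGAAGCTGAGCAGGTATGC
LOC100911177 (chr3:176211310-176211354): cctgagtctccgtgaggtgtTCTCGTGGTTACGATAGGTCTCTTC
LOC102549726 (chr20:3881188-3881232): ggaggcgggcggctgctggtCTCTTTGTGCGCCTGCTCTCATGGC
LOC100912041 (chr1:215048315-215048359): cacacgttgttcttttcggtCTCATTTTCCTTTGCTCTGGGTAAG
The run of C and T from the annotated start was 4 bases long in LOC100911177, 6 in LOC102549726 and 3 in LOC100912041, and the annotated start of Gas5 is a G.

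Libraries held 31206834 to 41971877 counts. Of 16 nucleus pulposus markers listed, 13 were in the table. Acan, Col2a1 and Sox9 were present in every library, while Krt18 and Tbxt, which mark the notochord-derived cells, were near 0 in all 9. Krt19 and Car12 reached at most 0.763 and 0.650 CPM. In BNPMT, SEN and NC, Acan averaged 322, 681 and 587 CPM, Col2a1 1962, 6492 and 4571 CPM and Comp 3.18, 60.2 and 8.84 CPM. Krt8 and Cd24 were also highest in SEN. Pax1 averaged 149, 52.7 and 135 CPM, and Foxf1 and Nog were also lowest in SEN. The leukocyte genes Cd68 and Itgam and the endothelial gene Pecam1 averaged 0.527, 0 and 0.0254 CPM in BNPMT, 22.6, 3.97 and 4.04 CPM in SEN and 0.464, 0 and 0.0165 CPM in NC, whereas Adgre1, Cdh5 and Tie1 were near 0 throughout. The leukocyte gene Cd14 had another order, with 16.6 CPM in BNPMT, 4.04 CPM in SEN and 11.4 CPM in NC, and the leukocyte gene Csf1r averaged 0.0319, 0.403 and 0.0605 CPM in these groups. The 5 leukocyte genes in the table, of 8 listed, summed to 16.3 to 18.4 CPM in BNPMT libraries, 29.4 to 33.2 CPM in SEN libraries and 11.2 to 12.6 CPM in NC libraries. Of 7 endothelial genes listed, all in the table, Kdr averaged 0.462, 0.335 and 0.107 CPM in BNPMT, SEN and NC. In the same groups Vwf averaged 0.170, 0.265 and 0.270 CPM and Tek 0.586, 0.441 and 0.962 CPM, and Emcn was near 0. The 7 summed to 0.981 to 1.54 CPM in BNPMT libraries, 4.95 to 5.54 CPM in SEN libraries and 1.04 to 1.55 CPM in NC libraries. The part of both lists in the results below was not tested. In such bulk libraries a smaller share of cells that make a transcript and less of it per cell cannot be told apart. Deviations of libraries from their group means followed gene length, with Spearman correlations over genes of 0.510, -0.431 and -0.316 in BNPMT libraries 1, 2 and 3, -0.415, 0.264 and 0.234 in SEN libraries 1, 2 and 3, and -0.196 to 0.150 in NC libraries. BNPMT library 1 and SEN library 1 stood opposite to the other libraries of their groups.

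Non-coding rows took 0.281%, 0.277% and 0.279% of counts in the BNPMT libraries, 0.553%, 0.565% and 0.573% in the SEN libraries and 0.334%, 0.332% and 0.331% in the NC libraries. The 3 groups did not overlap. Much of the gap between BNPMT and NC lay in the highest row, Xist. Without it the mean shares were 0.2345% in BNPMT, 0.4741% in SEN and 0.2455% in NC. H19, described below, was also far lower in BNPMT than in NC, and shares without it are not given. The order of BNPMT and NC is therefore not read as a trait of non-coding rows at large. Of the 209 members, 115 reached 3 CPM in BNPMT, 164 in SEN and 113 in NC. All 3 groups reached it in 74 members, 2 groups in 35 and 1 group in 100, and 84 of those 100 reached it in SEN alone. These counts depend on the level rule, and the same counts over all genes are not given. The lowest group means that met the rule were 3.02 CPM for LOC120096183 in NC and 3.05 CPM for LOC120102377, and the nearest values below it were 2.97 CPM for Lppos in BNPMT and 2.996 CPM for LOC102555570 in BNPMT.

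Log2 changes are those of edgeR's quasi-likelihood test on counts scaled by TMM, a factor per library that sets the bulk of genes level. Total-count scaling would move the median of all genes by -0.46 in SEN against NC and by 0.52 in BNPMT against SEN, so a log2 change does not equal the ratio of the CPM values printed beside it. A call means an adjusted p below 0.05 (Benjamini-Hochberg over all genes tested). Tests of single members are given only for the 74 that reached 3 CPM in all 3 groups. The others are given by their levels, because the level rule itself favours a difference in members that entered through only some groups.

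Among the 74 members at 3 CPM in all 3 groups, 41 were called higher and 17 lower in SEN than in NC, with a median log2 change of 0.49. Of all 14956 genes tested, 37.6% were called higher and 38.5% lower, the median being -0.01. In BNPMT against SEN, 21 of the 74 were called higher and 38 lower (median -0.56), beside 40.7% and 39.9% of all genes. In BNPMT against NC, 16 were called higher and 17 lower (median 0.02), beside 26.3% and 26.5% of all genes. A minimum in every group leaves out members that fell far in 1 group, so the 128 members that averaged 3 CPM or more across all 9 libraries were counted too. They include members that entered through SEN alone, for which the level rule favours a difference there. Of the 128, 76 were called higher and 32 lower in SEN than in NC (median 0.81), beside 35.5% and 45.0% of all genes at that mean level. In BNPMT against SEN 36 were called higher and 73 lower, beside 46.9% and 38.4%, and in BNPMT against NC 29 were called higher and 23 lower, beside 31.1% and 32.0%. The contrasts with SEN share the SEN libraries, and the level rule used the same libraries, so these counts are a description.

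**Figure D1:**
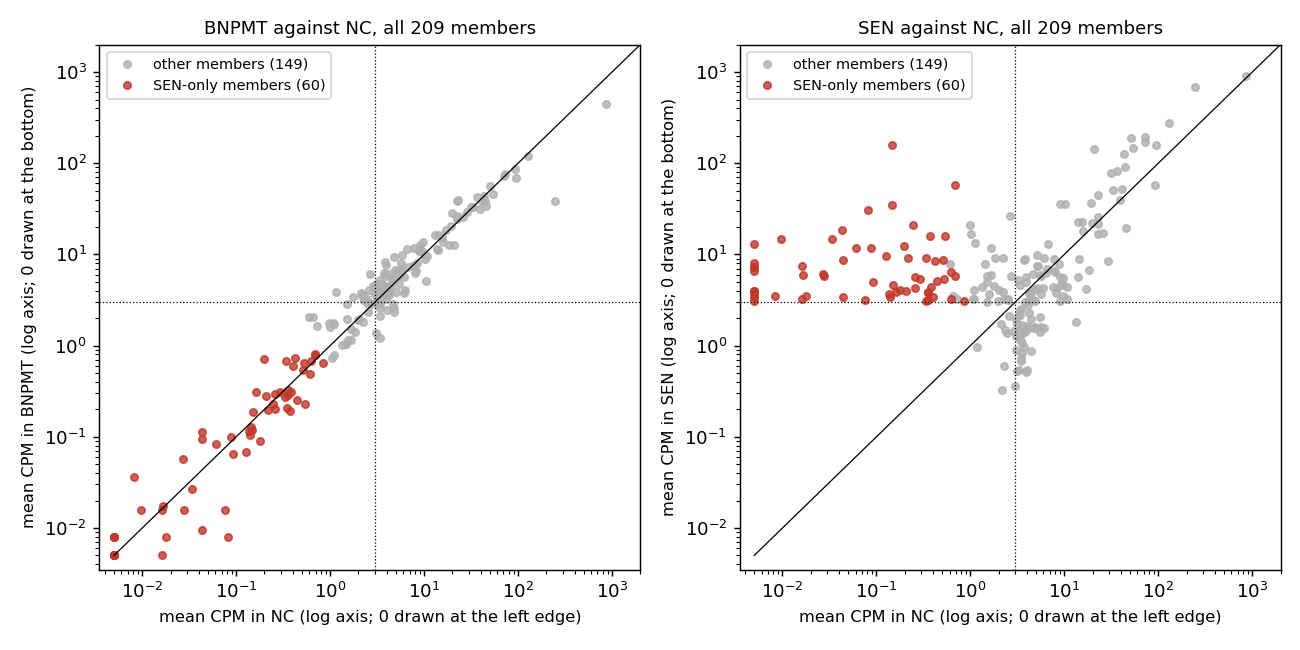
Mean level of the 209 members in BNPMT (left) and in SEN (right) on the vertical axis, against NC on the horizontal axis (CPM, log axes, means of 3 libraries, values of 0 drawn at the edge). Dotted lines mark 3 CPM and the diagonal marks equal levels. The 60 red members lie under 1 CPM in BNPMT and NC and at 3.05 to 156.8 CPM in SEN.

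Most snoRNA hosts were higher in SEN cells than in NC cells. Of the 13, all at 3 CPM in every group, 12 were called higher in SEN than in NC and 1 was not called, beside 37.6% of all genes called higher. With total counts alone 10 were called higher and 1 lower, and the shares of all genes under that scaling are not given. In BNPMT against SEN 11 were called lower and 1 higher, beside 39.9% and 40.7% of all genes. In BNPMT against NC 4 were called lower and 9 were not called, near the 26.5% of all genes called lower. Their median log2 change was 1.39 in SEN against NC, -1.69 in BNPMT against SEN and -0.04 in BNPMT against NC.

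Gas5, whose introns hold a series of box C/D snoRNAs and whose spliced RNA accumulates when growth stops, had 108, 123 and 127 CPM in BNPMT libraries, 307, 261 and 261 CPM in SEN libraries and 125, 128 and 133 CPM in NC libraries. Every SEN library lay above every library of the other groups. The log2 change was 1.55 ± 0.08 (SE, adjusted p = 6.25e-10) in SEN against NC, -1.71 ± 0.08 (SE, adjusted p = 2.01e-10) in BNPMT against SEN and -0.16 ± 0.08 (SE, adjusted p = 0.1) in BNPMT against NC. The BNPMT against NC value was -0.72 after a correction that removed each library's trend with gene length (adjusted p = 7.89e-09) and -0.0952 without BNPMT library 1 and SEN library 1 (adjusted p = 0.0454).

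LOC100909675, which spans Snord93, had 11.4, 12 and 14.7 CPM in BNPMT libraries, 154, 134 and 137 CPM in SEN libraries and 18.7, 22.8 and 20.3 CPM in NC libraries. The 3 groups did not overlap, with BNPMT the lowest. It was higher in SEN than in NC by 3.23 ± 0.10 (SE, adjusted p = 3.62e-12) on the log2 scale, and lower in BNPMT than in SEN (-3.98 ± 0.11 SE, adjusted p = 6.33e-13) and in NC (-0.75 ± 0.10 SE, adjusted p = 6.88e-05). The coding gene head to head with it, Tomm7, a small subunit of the mitochondrial import pore, stood at 66.2 CPM in BNPMT, 31.4 CPM in SEN and 35.6 CPM in NC.

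LOC100911177, which spans Snord12 and Snord12c, had 44.1, 64 and 59 CPM in BNPMT libraries, 219.6, 168 and 178 CPM in SEN libraries and 48.1, 52.2 and 52.3 CPM in NC libraries. SEN was the high group, by 2.34 ± 0.13 (SE, adjusted p = 1.45e-09) over NC, and BNPMT and NC libraries overlapped (0.08 ± 0.13 SE, adjusted p = 0.623 in BNPMT against NC). That value was 0.22 without BNPMT library 1 and SEN library 1 (adjusted p = 0.00172) and -0.49 after the length correction (adjusted p = 3.07e-06), so its direction depended on the processing. Its head-to-head coding neighbour Znfx1 went the other way: 4.36 CPM in SEN and 15.8 CPM in NC, a log2 change of -1.41 ± 0.13 (SE, adjusted p = 2.19e-07).

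LOC102549726, with Snord48 and Snord52 inside, had 189, 165 and 165 CPM in SEN and 71.5, 70.5 and 75.9 CPM in NC (1.70 ± 0.09 SE, adjusted p = 9.91e-10). Its nearest coding gene is Hspa1b, an inducible heat-shock chaperone, which averaged 817 ± 46.9 CPM in SEN and 6.33 ± 0.591 CPM in NC (SD, n = 3 each). Both were higher in SEN, by unequal amounts on the log2 scale.

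LOC120102992, with Snora61 and Snord99 inside, averaged 72.3 ± 6.88 CPM in BNPMT, 194 ± 17.6 CPM in SEN and 71.7 ± 3.04 CPM in NC (SD, n = 3 each). LOC120098269, with 1 snoRNA gene known only by a placeholder, averaged 43.3 ± 7.27, 126 ± 15.1 and 43.5 ± 2.37 CPM in BNPMT, SEN and NC. Both were called higher in SEN than in NC, with log2 changes of 1.89 ± 0.09 and 1.99 ± 0.12 (SE), and neither was called in BNPMT against NC, except after the length correction (-0.52 and -0.34).

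LOC100912041, which spans Snord26, Snord27 and Snord30, had 65.1, 75.5 and 68.4 CPM in BNPMT libraries, 169, 154 and 153 CPM in SEN libraries and 92.3, 95.2 and 97.9 CPM in NC libraries. The groups did not overlap, and BNPMT stood below NC as well as below SEN (against NC, a log2 change of -0.50 ± 0.07 SE, adjusted p = 7.09e-05). Its head-to-head neighbour Slc3a2, the heavy chain of an amino acid transporter, had the same order: 199 CPM in BNPMT, 277 CPM in SEN and 273 CPM in NC.

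LOC102556004 (Snord87), LOC100909539 (Snord123) and LOC102547700 were called higher in SEN than in NC by 1.08 ± 0.10, 1.39 ± 0.12 and 1.14 ± 0.12 on the log2 scale (SE). LOC100911534, with Snora71a and Snora71c inside, averaged 4.09 ± 0.233 CPM in BNPMT, 6.18 ± 0.647 CPM in SEN and 6.32 ± 0.55 CPM in NC (SD, n = 3 each), and its call in SEN against NC (0.42 ± 0.12 SE, adjusted p = 0.00613) was lost when a length trend was taken out (adjusted p = 0.0764). LOC100911266 was called in SEN against NC (0.39 ± 0.12 SE, adjusted p = 0.00866) but not without SEN library 1 (0.25, adjusted p = 0.0631), and both this gene and LOC100911534 turned negative with total counts alone (-0.06 and -0.03).

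Dancr, a host known for keeping progenitor cells undifferentiated, was the host that was not called in SEN against NC (-0.16 ± 0.16 SE, adjusted p = 0.398). It had 5.17, 7.72 and 7.86 CPM in BNPMT libraries, 3.96, 3.43 and 3.65 CPM in SEN libraries and 5.56, 5.83 and 5.49 CPM in NC libraries. It was called lower in SEN than in NC with total counts alone (-0.61) and after the length correction (-0.60). It was called higher in BNPMT than in NC without BNPMT library 1 (0.43, adjusted p = 0.00687). Its call in BNPMT against SEN (0.40 ± 0.16 SE, adjusted p = 0.0343) was lost without SEN library 2 or 3, without BNPMT library 2 or 3, with DESeq2's test or its size factors, with the replicate block, with only the 2 groups and with a filter of 1 CPM, with values of 0.31 to 0.40 (adjusted p 0.052 to 0.129).

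In BNPMT against NC the number of calls depended on the processing. With the trend of log2 change on gene length taken out, 11 of the 13 hosts were called lower in BNPMT than in NC, against 4 without that step. Host lengths ran from 429 to 13909 bases. That step took each library's trend with length against the mean of all 9 libraries, so it also removed length trends between groups. The deviations by length given above are from group means and do not measure such trends. Without BNPMT library 1 and SEN library 1, 5 were called lower and 3 higher, the added calls being Gas5 (lower) and LOC100911177, Dancr and LOC100911266 (higher). LOC102547700 lost its call in BNPMT against NC without BNPMT library 1 (-0.26, adjusted p = 0.0569) or NC library 3 (-0.32, adjusted p = 0.0743). In SEN against NC, taking out the length trend gave 11 higher and 1 lower. Shares of all genes called under these other settings are not given, so these counts are not read as a result.

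Of 14 genes for proteins that bind snoRNAs, among them Fbl (fibrillarin) and Dkc1 (dyskerin), 7 were called higher and 7 lower in SEN than in NC, with a median log2 change of 0.04. Of 15 genes of nonsense-mediated decay, 5 were called higher and 4 lower (median -0.03). Over all genes the shares were 37.6% higher and 38.5% lower, so neither list is read as a result.

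**Figure D2:**
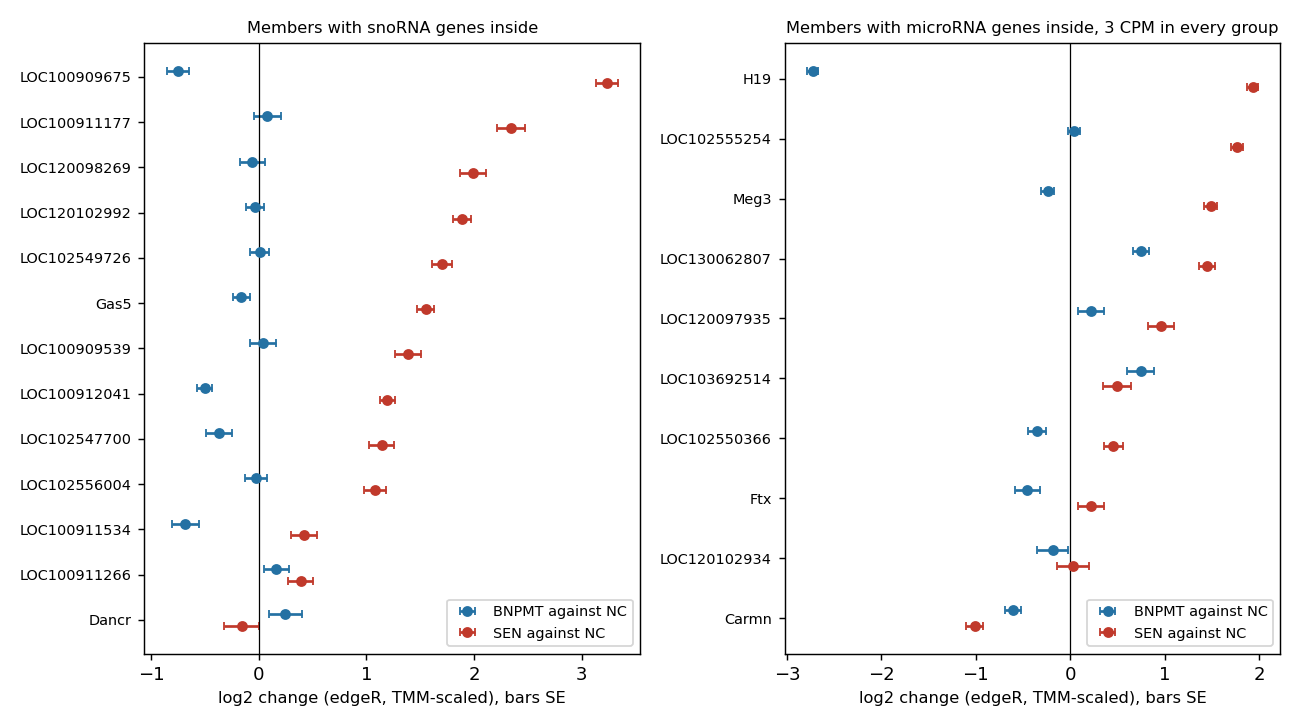
Log2 change of BNPMT against NC (blue) and SEN against NC (red) for the 13 snoRNA hosts (left) and the 10 microRNA hosts at 3 CPM in every group (right), from edgeR on TMM-scaled counts, with bars for the SE (n = 3 libraries a group). Red points lie right of 0 for 12 snoRNA hosts, of which LOC100911266 and LOC100911534 turn negative with total counts alone, and H19 is the blue point at -2.73.

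Of the 15 microRNA hosts, 10 were at 3 CPM in every group. Of these 10, 7 were called higher and 1 lower in SEN than in NC, beside 37.6% and 38.5% of all genes. In BNPMT against SEN 1 was called higher and 7 lower, beside 40.7% and 39.9% of all genes. In BNPMT against NC 2 were called higher and 5 lower, beside 26.3% and 26.5%. Genes of the microRNA machinery (Drosha, Dicer1, the Ago family and others) gave 2 higher and 6 lower of 13 tested in SEN against NC, beside the same 37.6% and 38.5%.

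Imprinted genes are expressed from 1 parental copy, and H19 and Meg3 are the classical non-coding ones, each beside growth genes expressed from the other copy. H19, which gives rise to miR-675, had 38.5, 41.3 and 37.2 CPM in BNPMT libraries, 717, 671 and 692 CPM in SEN libraries and 253, 246 and 248 CPM in NC libraries. The groups lay far apart, with SEN above NC and BNPMT below it. The log2 change was 1.93 ± 0.06 (SE, adjusted p = 1.69e-12) in SEN against NC, -4.66 ± 0.06 (SE, adjusted p = 1.28e-15) in BNPMT against SEN and -2.73 ± 0.06 (SE, adjusted p = 9.15e-12) in BNPMT against NC. Igf2, the growth factor gene next to it on the other parental copy, averaged 59.96 ± 2.06 CPM in BNPMT, 163 ± 1.91 CPM in SEN and 109 ± 3.31 CPM in NC (SD, n = 3 each). It had the same order of groups, with a log2 change of 1.03 ± 0.05 (SE, adjusted p = 4.04e-10) in SEN against NC and -0.92 ± 0.05 (SE, adjusted p = 3.35e-08) in BNPMT against NC.

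Meg3, known in human cells to raise p53 activity, had 37.2, 40.4 and 39 CPM in BNPMT libraries, 84.2, 88 and 99.8 CPM in SEN libraries and 43.7, 45 and 44.2 CPM in NC libraries. It was higher in SEN than in NC (1.49 ± 0.07 SE, adjusted p = 2.08e-10) and lower in BNPMT than in SEN (-1.72 ± 0.07 SE, adjusted p = 4.26e-11), and BNPMT lay slightly under NC (-0.24 ± 0.07 SE, adjusted p = 0.0106). LOC102555254, which follows in the same imprinted region and spans miR-370, miR-379 and many snoRNA genes, had the same high group, with 33.3 ± 0.557 CPM in BNPMT, 77.7 ± 1.48 CPM in SEN and 31.3 ± 1.92 CPM in NC (SD, n = 3 each). Its log2 change was 1.76 ± 0.06 (SE, adjusted p = 9.75e-12) in SEN against NC. LOC120103623, another row in that microRNA cluster, had 1.03, 1.31 and 1.14 CPM in BNPMT libraries, 12.1, 11.5 and 11.3 CPM in SEN libraries and 1.77, 1.46 and 1.79 CPM in NC libraries, so it passed the level rule through SEN alone. Dlk1, the coding gene of that region expressed from the other copy, averaged 40.6, 28.6 and 19.3 CPM in BNPMT, SEN and NC, an order that Meg3 did not share.

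Carmn, the host of miR-143 and miR-145 and a gene of smooth muscle and contractile cells, was the 1 microRNA host called lower in SEN than in NC. It had 13.6, 12.7 and 11.4 CPM in BNPMT libraries, 6.46, 6.5 and 7.04 CPM in SEN libraries and 18.1, 18.6 and 18.6 CPM in NC libraries. Every SEN library was lowest, and NC was highest. Its log2 change was -1.01 ± 0.09 (SE, adjusted p = 1.58e-07) in SEN against NC, 0.41 ± 0.09 (SE, adjusted p = 0.000855) in BNPMT against SEN and -0.60 ± 0.08 (SE, adjusted p = 6.78e-05) in BNPMT against NC. Of 6 smooth-muscle genes listed, all in the table, Acta2, Tagln, Myh11 and Cnn1 had the same order of CPM means, and Des and Smtn did not. Acta2 averaged 1145, 389 and 2387 CPM, Tagln 1443, 964 and 1890 CPM, Myh11 40.7, 6.70 and 110.3 CPM and Cnn1 32.7, 18.8 and 61.2 CPM in BNPMT, SEN and NC. Des averaged 54.9, 28.4 and 28.4 CPM and Smtn 190.1, 202.6 and 304.5 CPM. The 6 genes, with Acta2 and Tagln the most abundant, summed to 2746 to 2989 CPM in BNPMT libraries, 1522 to 1704 CPM in SEN libraries and 4764 to 4808 CPM in NC libraries. Their part in the Carmn values was not tested.

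LOC130062807, which spans Mir31, had 37, 42.6 and 39.2 CPM in BNPMT libraries, 45.2, 48.5 and 42.2 CPM in SEN libraries and 21.2, 24.6 and 22.4 CPM in NC libraries. BNPMT libraries lay below SEN on the TMM scale (-0.70 ± 0.08 SE, adjusted p = 2.38e-06) and above NC (0.75 ± 0.08 SE, adjusted p = 1.11e-05). The difference between BNPMT and SEN was smaller with total counts alone (-0.19) and still called. SEN against NC gave 1.45 ± 0.08 (SE, adjusted p = 1.92e-09). LOC103692514, which spans Mir34a, a microRNA gene that p53 switches on, had 11.8, 11.7 and 10.9 CPM in BNPMT libraries, 5.18, 7.72 and 7.61 CPM in SEN libraries and 6.72, 5.63 and 7.47 CPM in NC libraries. BNPMT was above NC by 0.74 ± 0.14 (SE, adjusted p = 0.000726), and the SEN value against NC (0.49 ± 0.15 SE, adjusted p = 0.00806) fell to 0.04 with total counts alone (adjusted p = 0.8).

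LOC102550366, which spans Mir322, Mir503 and Mir351, had 38, 41.8 and 37.6 CPM in SEN and 39.8, 41.4 and 35.9 CPM in NC, which overlap. Its call in SEN against NC (0.46 ± 0.10 SE, adjusted p = 0.000637) was lost with total counts alone (0.0045, adjusted p = 0.966). LOC120097935, with let-7a and let-7d genes inside, averaged 6.35 ± 0.644 CPM in BNPMT, 7.52 ± 1.16 CPM in SEN and 5.26 ± 0.609 CPM in NC (SD, n = 3 each), and SEN exceeded NC by 0.96 ± 0.14 (SE, adjusted p = 2.34e-05). LOC120102934, with Mir101a inside, overlapped in all 3 pairs of groups and was not called in any. It was called in BNPMT against SEN without SEN library 1 (-0.38, adjusted p = 0.0412) and lower in SEN than in NC with total counts alone (-0.42, adjusted p = 0.0346).

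Hosts that reached 3 CPM in only some groups are given by level. LOC120099382, which spans Mir221 and Mir222, had 5.98, 5.64 and 6.58 CPM in BNPMT libraries, 24.8, 28.7 and 26 CPM in SEN libraries and 2.43, 3.26 and 2.24 CPM in NC libraries. Mir155hg, the host of miR-155, known from activated immune cells, had 0.12, 0.142 and 0.31 CPM in BNPMT libraries, 14.4, 16.3 and 16.7 CPM in SEN libraries and 0.579, 0.222 and 0.31 CPM in NC libraries. LOC108352541 (Mir181a-1) averaged 1.97 CPM in BNPMT, 4.09 CPM in SEN and 2.02 CPM in NC, and LOC102549836 (Mir297) 0.0936, 8.69 and 0.0437 CPM. In all of these every SEN library was above every BNPMT and NC library. Mir155hg was near 0 outside SEN. Of the 5 leukocyte genes in the table, Cd68, Itgam and Csf1r were also highest in SEN, Cd14 was lowest there, and Adgre1 had at most 0.0290 CPM in any library. Their part in the Mir155hg values was not tested.

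Xist, the RNA that silences an X chromosome in female cells, had 561, 372 and 400.2 CPM in BNPMT libraries, 697, 977 and 1018 CPM in SEN libraries and 904, 861 and 839.7 CPM in NC libraries. BNPMT libraries lay below those of both other groups, and SEN and NC libraries overlapped. The log2 change was -1.52 ± 0.14 (SE, adjusted p = 2.95e-07) in BNPMT against SEN and -1.02 ± 0.14 (SE, adjusted p = 6.94e-05) in BNPMT against NC. Without SEN library 1 and BNPMT library 1 these values were -1.85 and -1.21. SEN exceeded NC by 0.50 ± 0.14 (SE, adjusted p = 0.00539), which fell to 0.05 with total counts alone (adjusted p = 0.773). The Y-linked genes Ddx3y and Uty had at most 0.119 and 0.0283 CPM in any library.

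Jpx and Ftx lie beside Xist and are known as its activators in mouse. Jpx had 8.11, 6.27 and 7.89 CPM in BNPMT libraries, 4.06, 4.77 and 4.41 CPM in SEN libraries and 7.24, 8.6 and 7.07 CPM in NC libraries, and its value in SEN against NC (-0.34 ± 0.13 SE, adjusted p = 0.0301) was lost without SEN library 1 (adjusted p = 0.0905), SEN library 3 (0.0597) or NC library 2 (0.121). It was also lost with the replicate block (adjusted p = 0.0536), DESeq2's test (0.0721), DESeq2's size factors (0.0656) and the length correction (0.0638). Jpx was not called in BNPMT against SEN in the TMM-scaled fit of all libraries. Some other settings called it higher there, among them total counts alone (0.75, adjusted p = 0.000136) and the length correction (0.35, adjusted p = 0.0166). Ftx, which spans Mir421 and Mir374b, averaged 3.84 ± 0.311 CPM in BNPMT, 4.33 ± 0.367 CPM in SEN and 5.08 ± 0.616 CPM in NC (SD, n = 3 each). It was lower in BNPMT than in SEN (-0.68 ± 0.14 SE, adjusted p = 0.000467), a call that total counts alone did not give (-0.17, adjusted p = 0.26). In BNPMT against NC it was called (-0.45 ± 0.13 SE, adjusted p = 0.0121) but not without BNPMT library 3 or NC library 1.

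**Figure D3:**
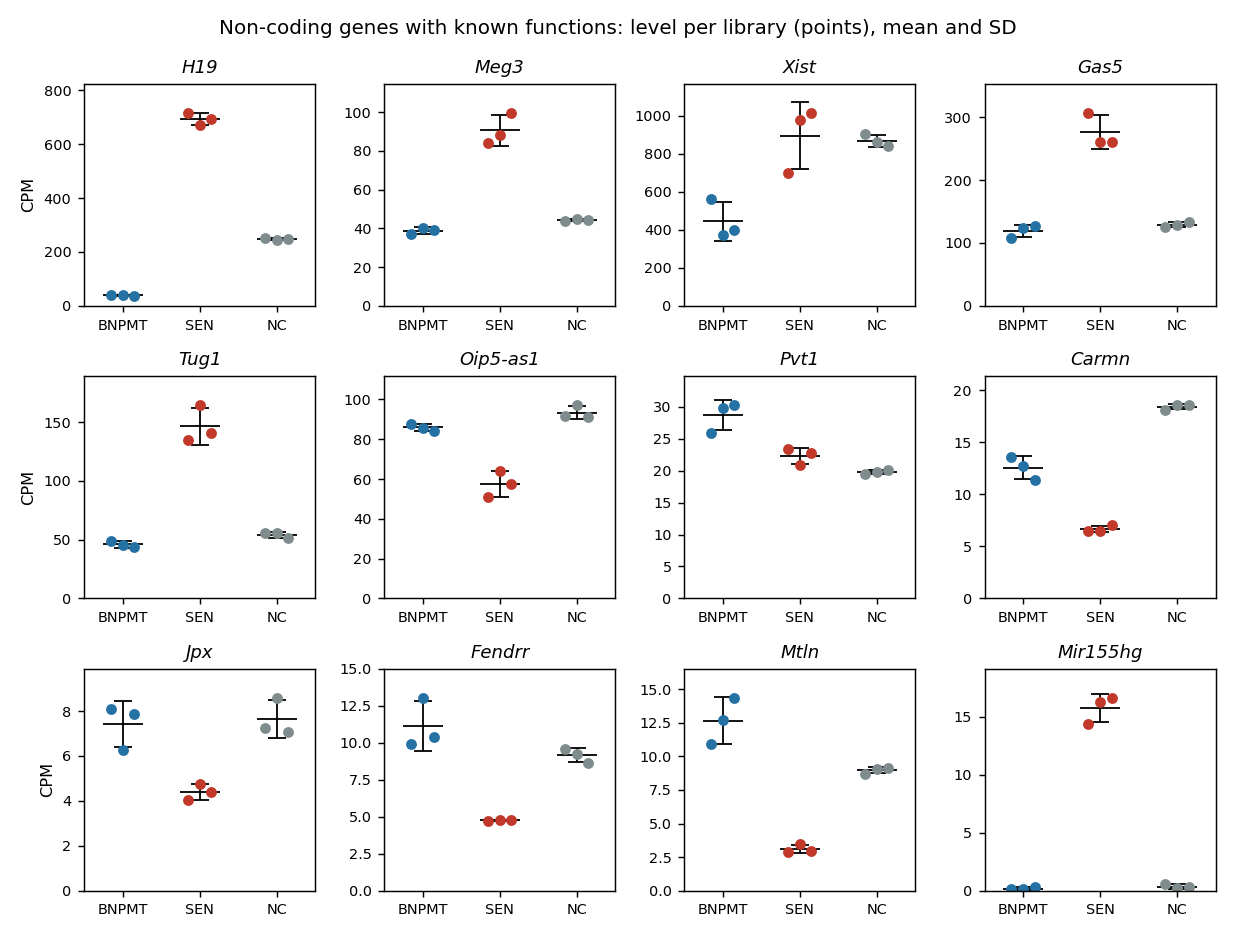
Level of 12 non-coding genes with known functions (CPM, each axis from 0) in BNPMT, SEN and NC, with 1 point per library and black bars for the mean and SD (n = 3). H19, Meg3, Gas5, Tug1 and Mir155hg have all SEN points above the others, and Carmn, Jpx, Fendrr, Oip5-as1 and Mtln have them below. Points are not TMM-scaled, and on the TMM scale neither Jpx nor Oip5-as1 was called in BNPMT against SEN with all libraries.

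Tug1, an lncRNA that p53 induces and that binds chromatin-silencing complexes, had 49.1, 45.1 and 43.9 CPM in BNPMT libraries, 135, 165 and 141 CPM in SEN libraries and 55.3, 55.3 and 51.2 CPM in NC libraries. SEN libraries stood clear of both other groups. Its log2 change was 1.90 ± 0.08 (SE, adjusted p = 4.48e-11) in SEN against NC and -2.18 ± 0.08 (SE, adjusted p = 1.07e-11) in BNPMT against SEN. BNPMT lay a little under NC (-0.28 ± 0.08 SE, adjusted p = 0.00719), and removing the length trend ended that call (-0.14, adjusted p = 0.0619).

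Pvt1, the neighbour of Myc, had 26, 29.8 and 30.3 CPM in BNPMT libraries, 23.4, 21 and 22.8 CPM in SEN libraries and 19.5, 19.8 and 20.2 CPM in NC libraries. BNPMT was above NC by 0.48 ± 0.08 (SE, adjusted p = 0.000245). In SEN against NC the value was 0.63 ± 0.08 (SE, adjusted p = 7.83e-06), which fell to 0.18 with total counts alone (adjusted p = 0.0522). The direction in BNPMT against SEN depended on the scaling, with -0.14 ± 0.08 (SE) in the TMM-scaled fit, -0.33 after the length correction (adjusted p = 0.000541) and 0.36 with total counts alone (adjusted p = 0.000669).

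Oip5-as1, known as Cyrano and for the destruction of miR-7, had 87.9, 85.5 and 84.4 CPM in BNPMT libraries, 51.2, 64 and 57.5 CPM in SEN libraries and 91.8, 97.1 and 91 CPM in NC libraries. SEN was lowest on the CPM scale, and on the TMM scale SEN lay under NC (-0.25 ± 0.07 SE, adjusted p = 0.00631). It was called lower in BNPMT than in NC without BNPMT library 1 and SEN library 1 (-0.18, adjusted p = 0.00528). Oip5-as1 was not called in BNPMT against SEN in the TMM-scaled fit of all libraries. It was called higher there with total counts alone (0.58, adjusted p = 5.17e-06), after the length correction (0.36, adjusted p = 3.58e-05) and without SEN library 2 (0.16, adjusted p = 0.0387). Oip5, the coding gene at its tail, averaged 6.78 CPM in BNPMT, 2.6 CPM in SEN and 6.16 CPM in NC. Hoxa11-as, antisense to the limb and skeletal patterning gene Hoxa11, had 23.6, 26.9 and 27.1 CPM in BNPMT libraries, 17.5, 18.2 and 16.3 CPM in SEN libraries and 24.2, 28.2 and 25.4 CPM in NC libraries. Its log2 change in SEN against NC was -0.13 ± 0.09 (SE, adjusted p = 0.187) and was called with total counts alone (-0.58), while Hoxa11 itself was lower in SEN (-1.87 ± 0.08 SE, adjusted p = 4.77e-11).

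Fendrr, divergent from Foxf1, a transcription factor of mesoderm, had 9.9, 13.1 and 10.4 CPM in BNPMT libraries, 4.71, 4.77 and 4.81 CPM in SEN libraries and 9.59, 9.24 and 8.65 CPM in NC libraries. It was lower in SEN than in NC (-0.49 ± 0.12 SE, adjusted p = 0.00261) and higher in BNPMT than in SEN (0.72 ± 0.12 SE, adjusted p = 9.9e-05). Without BNPMT library 1 it was also called higher in BNPMT than in NC (0.31, adjusted p = 0.0305). Foxf1 averaged 29.2 CPM in BNPMT, 17.1 CPM in SEN and 30.6 CPM in NC, with log2 changes of -0.38 ± 0.08 (SE) in SEN against NC and 0.26 ± 0.08 in BNPMT against SEN. Thumpd3-as1 was not called in any of the 3 comparisons. Its value in BNPMT against SEN was -0.04 ± 0.12 (SE) with TMM, 0.47 with total counts alone (adjusted p = 0.00255) and -0.36 after the length correction (adjusted p = 0.0165), so its direction depended on the processing. In SEN against NC 7 alternatives called it higher, among them DESeq2's test (0.33, adjusted p = 0.0207) and the replicate block (0.27, adjusted p = 0.0477).

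Mtln is typed as non-coding in the table but is known to encode mitoregulin, a micropeptide of the inner mitochondrial membrane. It had 10.9, 12.7 and 14.4 CPM in BNPMT libraries, 2.89, 3.46 and 2.97 CPM in SEN libraries and 8.69, 9.07 and 9.1 CPM in NC libraries. The groups did not overlap. It was lower in SEN than in NC (-1.08 ± 0.13 SE, adjusted p = 4.07e-06) and higher in BNPMT than in SEN (1.53 ± 0.13 SE, adjusted p = 8.42e-08). The rise in BNPMT against NC (0.45 ± 0.11 SE, adjusted p = 0.00491) turned to -0.11 after the length correction.

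Named genes that reached 3 CPM in only 2 groups were these. Zbtb11os1, beside the zinc-finger gene Zbtb11, had 5.45, 5.36 and 6.55 CPM in BNPMT libraries, 1.9, 2.15 and 2.09 CPM in SEN libraries and 5.65, 4.92 and 5.95 CPM in NC libraries, and Zbtb11 had the opposite order, with 23.3, 52.7 and 30.2 CPM in BNPMT, SEN and NC. Ptgs2os, head to head with Ptgs2 (the inducible cyclooxygenase that makes prostaglandins), had 2.82, 4.5 and 3.57 CPM in BNPMT libraries, 3.86, 3.59 and 4.21 CPM in SEN libraries and 1.77, 2.54 and 2.34 CPM in NC libraries. BNPMT and SEN libraries overlapped there, whereas Ptgs2 averaged 42.9 ± 6.8 CPM in BNPMT and 1758 ± 268 CPM in SEN (SD, n = 3 each), beside 41.1 ± 3.93 CPM in NC. Lrap averaged 3.84, 0.965 and 3.74 CPM in BNPMT, SEN and NC, Lnc134 3.4, 2.5 and 3.48 CPM, and Tincr 2.87, 4.57 and 3.37 CPM.

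Some placeholder members lie beside genes of the damage response and the matrix, and were picked out here after their values were seen. LOC120098812, head to head with the cell-cycle inhibitor Cdkn1a, had 1.7, 1.68 and 1.57 CPM in BNPMT libraries, 3.86, 2.76 and 3.14 CPM in SEN libraries and 0.406, 0.889 and 0.884 CPM in NC libraries. LOC100911221, near the transcription factor gene Jun, had 11.2, 10.6 and 11.6 CPM in BNPMT libraries, 37.9, 32.7 and 37.9 CPM in SEN libraries and 9.59, 8.69 and 9.03 CPM in NC libraries, with a log2 change of 2.45 ± 0.08 (SE, adjusted p = 8.63e-12) in SEN against NC, beside 3.82 ± 0.05 (SE) for Jun. LOC102553018, head to head with the matrix-signalling gene Ccn1, had 32.5, 33.9 and 34.8 CPM in BNPMT libraries, 21, 18.1 and 18.8 CPM in SEN libraries and 45.3, 43.8 and 46.4 CPM in NC libraries. It was lower in SEN than in NC (-0.77 ± 0.07 SE, adjusted p = 2.87e-07), as was Ccn1 (-0.62 ± 0.05 SE, adjusted p = 1.13e-07), and BNPMT lay between the groups.

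LOC100912188, which overlaps the stress gene Gadd45a on the opposite strand, averaged 1.52 ± 0.0818 CPM in BNPMT, 5.91 ± 0.842 CPM in SEN and 1.66 ± 0.500 CPM in NC (SD, n = 3 each). LOC108351425, opposite the thioredoxin reductase gene Txnrd1, averaged 0.286, 3.77 and 0.352 CPM. Both coding partners were also higher in SEN than in NC, by 2.03 ± 0.10 and 3.24 ± 0.06 on the log2 scale (SE). Whether counting used strand is not given here, and without it reads of such overlapping pairs cannot be told apart. LOC102552725, near the aggrecanase gene Adamts5, was high in NC alone, with 1.21, 1.16 and 3.41 CPM in BNPMT, SEN and NC, and Adamts5 had 17.8, 9.45 and 38.9 CPM.

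A set of 60 members was at 3 CPM or more in SEN and under 1 CPM in both other groups, called SEN-only below. They are 28.7% of the members, and 179 of the 11547 protein-coding rows that met the same minimum (1.55%) had that pattern. Members and protein-coding rows were not matched for level above that minimum. The shares are therefore not read as a difference between them. The level rule and these limits fix the direction, so no test is given. Summed over the 60, the BNPMT libraries had 12.8, 11.2 and 14.1 CPM, the SEN libraries 630.1, 681.5 and 688.4 CPM and the NC libraries 12.2, 11.9 and 12.9 CPM. The members' means ran from 3.05 to 156.8 CPM in SEN, with a median of 5.67 CPM. In 7 of the 60, none of the 6 BNPMT and NC libraries had a count.

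LOC120102317 had 0.12, 0.114 and 0.119 CPM in BNPMT libraries, 154, 156 and 159.8 CPM in SEN libraries and 0.145, 0.222 and 0.0716 CPM in NC libraries, or 14 counts over the BNPMT libraries, 16453 over the SEN libraries and 17 over the NC libraries. It lies downstream of Hk2, the hexokinase of glucose use in growing cells, on the same strand, and Hk2 averaged 14.8 ± 3.35 CPM in BNPMT, 254 ± 19 CPM in SEN and 18.4 ± 1.23 CPM in NC (SD, n = 3 each). Over its 3810 bases LOC120101608 had no count in any BNPMT or NC library and 12, 13.4 and 13.8 CPM in SEN. That is at least 515.3-fold higher in SEN than in BNPMT and at least 506.6-fold higher than in NC, taking 3 counts over the group as the most that 0 allows. LOC120095090 had 29.5, 32.3 and 29.9 CPM in SEN and 1 count over the 3 BNPMT libraries and 9 over the NC libraries.

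LOC102552294 averaged 0.785 CPM in BNPMT, 57.3 CPM in SEN and 0.683 CPM in NC. LOC102551701, downstream of Reep3, averaged 0.705 ± 0.0292 CPM in BNPMT, 12.2 ± 0.949 CPM in SEN and 0.197 ± 0.0456 CPM in NC (SD, n = 3 each), so its BNPMT libraries stayed above the NC ones. LOC102550105, outside the SEN-only limits, had 2.15, 1.8 and 2.29 CPM in BNPMT libraries, 7.22, 7.37 and 9.11 CPM in SEN libraries and 0.637, 0.543 and 0.621 CPM in NC libraries, with every BNPMT library between SEN and NC.

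SEN-only members had a median length of 4893.5 bases, and the other members 3392. RefSeq places 38 of the 60 beside a nearest coding gene, and 10 lie downstream of it on the same strand. The 10 have 9 different neighbours, of which 8 were called higher in SEN than in NC and 1 lower (median log2 change 1.30), beside 37.6% and 38.5% of all genes. Neighbours of SEN-only members at any position were also more often higher. Of 33 different ones tested, 20 were called higher and 10 lower (median 0.92), so the pattern is not particular to the downstream position. Downstream on the same strand lay 12 other members, and of their 10 tested neighbours 2 were called higher and 6 lower (median -0.27). Among the 10, LOC103693272 and LOC108352212 share the neighbour Hapstr1, LOC102551544 lies behind Zfand5, LOC120103508 behind Rhob and LOC102548759 behind Zswim4. These counts are small and the position was looked at after the levels were known.

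LOC103693272, behind Hapstr1, had 0.143, 0 and 0.238 CPM in BNPMT libraries, 29, 34.9 and 41.4 CPM in SEN libraries and 0.145, 0.0988 and 0.191 CPM in NC libraries, and LOC108352212, also behind it, averaged 0.0174, 5.88 and 0.0165 CPM in BNPMT, SEN and NC. Hapstr1 averaged 84.6 ± 3.78 CPM in BNPMT, 147 ± 12.7 CPM in SEN and 81.9 ± 4.58 CPM in NC (SD, n = 3 each).

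**Figure D4:**
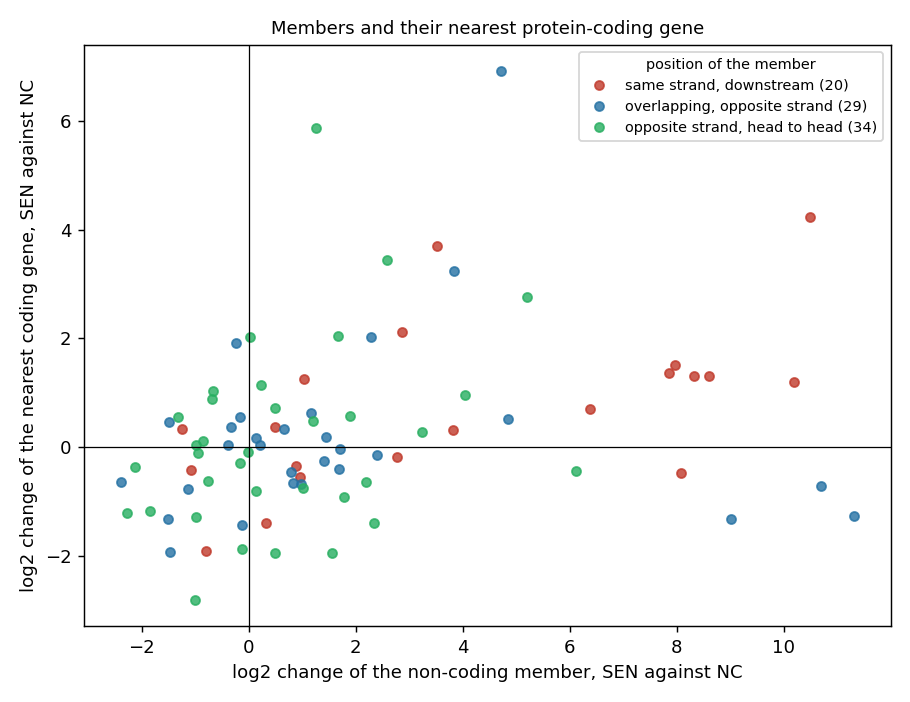
Log2 change in SEN against NC of a member (horizontal) and of its nearest protein-coding gene (vertical), for members downstream on the same strand (red, 20), overlapping on the opposite strand (blue, 29) and head to head on the opposite strand (green, 34), 1 point per pair. Fitted changes of members near 0 in NC depend on the prior count. Among the red points are the 10 SEN-only members that lie downstream of a coding gene, in 9 pairs with the coding gene above 0 (2 pairs share Hapstr1), and green points lie on both sides.

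Of 32 members that overlap a coding gene on the opposite strand, 29 had a tested partner, of which 9 were called higher and 12 lower in SEN than in NC. Of 35 head-to-head members, 34 partners were tested, with 14 higher and 16 lower. Over all genes 37.6% were called higher and 38.5% lower, so these counts are not read as a result. LOC120095090 and its partner Mrnip, a DNA repair gene, went opposite ways, Mrnip with 1.02 CPM in SEN and 3.54 CPM in NC. LOC102554909, head to head with the autophagy gene Gabarapl1, averaged 0.676 ± 0.339 CPM in BNPMT, 9.12 ± 0.751 CPM in SEN and 0.338 ± 0.164 CPM in NC (SD, n = 3 each).

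Promoters of 26 SEN-only and 105 other members are in RefSeq's table (250 bases before to 50 after the start), and 3 motifs that read the same on both strands were searched. TGANTCA, the AP-1 site to which Jun binds, was in 3 of the 26, 5 of the 105 and 7.33% of all 27457 promoters. GAANNTTC, part of the heat-shock element, was in 2, 9 and 8.34%. CACGTG, the E-box, was in 2, 12 and 6.65%. A match is a description of these letters only.

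BNPMT held the highest group mean in 54 members, SEN in 124 and NC in 31. At 3 CPM in BNPMT and NC but not in SEN were 29 members. Members entered by their highest group mean in CPM, without TMM scaling, and the same counts over all genes are not given. They are therefore not read as a result about non-coding genes. LOC120098827 had 17.9, 15.8 and 15.9 CPM in BNPMT libraries, 2.16, 1.57 and 1.72 CPM in SEN libraries and 13.2, 12.9 and 13.4 CPM in NC libraries, and LOC102548069 averaged 4.41, 0.88 and 4.39 CPM in BNPMT, SEN and NC. LOC689316 averaged 6.61 ± 0.756 CPM in BNPMT, 1.4 ± 0.164 CPM in SEN and 5.51 ± 0.375 CPM in NC (SD, n = 3 each). It overlaps Fbxw17 on the opposite strand, and Fbxw17 had the same order, with 12.2, 2.62 and 8.93 CPM.

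Of members at 3 CPM in every group, LOC102549117 had 18.6, 17.8 and 18.6 CPM in BNPMT libraries, 3.99, 4.68 and 3.79 CPM in SEN libraries and 16.7, 17.6 and 17.3 CPM in NC libraries, a log2 change of -1.60 ± 0.09 (SE, adjusted p = 2.06e-09) in SEN against NC and 1.64 ± 0.09 (SE, adjusted p = 1.33e-09) in BNPMT against SEN. LOC100911864, head to head with the translation factor gene Eif4g2, averaged 29 ± 1.13 CPM in BNPMT, 8.48 ± 0.948 CPM in SEN and 28.8 ± 2.01 CPM in NC (SD, n = 3 each). Its log2 change in SEN against NC was -1.31 ± 0.09 (SE, adjusted p = 1.5e-08). In both, BNPMT and NC were not told apart by the test.

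BNPMT did not match NC in every member. The 16 members called higher and 17 called lower in BNPMT than in NC, of the 74, are shares of 21.6% and 23.0%, near those of all genes given above. H19, Xist and Carmn, given above, were among the lower ones. LOC100911253 had 6.07, 4.16 and 5.29 CPM in BNPMT libraries, 2.76, 3.69 and 3.36 CPM in SEN libraries and 11.2, 9.41 and 11.1 CPM in NC libraries, and BNPMT, like SEN, lay under NC (-1.08 ± 0.14 SE, adjusted p = 4.55e-05). LOC680254 had 7.75, 8.52 and 8.32 CPM in BNPMT libraries, 10.1, 8.11 and 8.77 CPM in SEN libraries and 3.56, 4.12 and 3.87 CPM in NC libraries, and BNPMT, like SEN, lay above NC (1.03 ± 0.12 SE, adjusted p = 1.58e-05).

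Some members stood out in BNPMT alone. LOC100363521, named Smim30l1 in RefSeq, had 37.8, 40.8 and 37.7 CPM in BNPMT libraries, 18.2, 15.6 and 17 CPM in SEN libraries and 21.4, 21.9 and 24.4 CPM in NC libraries, a log2 change of 0.73 ± 0.08 (SE, adjusted p = 9.6e-06) in BNPMT against NC and 0.69 ± 0.08 (SE, adjusted p = 2.55e-06) in BNPMT against SEN. LOC108352757, head to head with the helicase gene Dhx15, averaged 9.39 ± 0.389 CPM in BNPMT, 4.1 ± 1.09 CPM in SEN and 4.76 ± 0.534 CPM in NC (SD, n = 3 each), with 0.93 ± 0.15 (SE, adjusted p = 0.00023) in BNPMT against NC. Of the 8 members at 3 CPM in BNPMT alone, LOC102550246 averaged 3.92 CPM in BNPMT, 0.966 CPM in SEN and 1.17 CPM in NC. The level rule fixes which group is high there.

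LOC120102871, near the TGF-beta receptor gene Tgfbr1 and SEN-only, had 0.239, 0.228 and 0.214 CPM in BNPMT libraries, 13, 15.8 and 19.1 CPM in SEN libraries and 0.782, 0.494 and 0.334 CPM in NC libraries, so BNPMT libraries lay under NC libraries at levels of under 1 CPM. LOC102547955, which overlaps Sp2 on the opposite strand, had 3.59, 3.62 and 4.1 CPM in BNPMT libraries, 1.82, 1.73 and 1.13 CPM in SEN libraries and 6.49, 5.53 and 6.16 CPM in NC libraries, with BNPMT between SEN and NC. LOC102556395, near the collagen gene Col1a1, was lower in SEN than in NC (-0.81 ± 0.14 SE, adjusted p = 8.67e-05), and Col1a1 was higher on the TMM scale (0.46 ± 0.06 SE, adjusted p = 5.47e-06). Without TMM scaling, Col1a1 averaged 30515.8 CPM in SEN and 30449.5 CPM in NC and its libraries overlapped, so its direction rests on the scaling.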

How the data were processed

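Poly(A) RNA of 9 libraries (3 groups of 3) was sequenced. Tools named in the submitters' processing notes are HISAT2, HTSeq and fastp, with the build mRatBN7.2 and neither versions nor roles. Annotation and strand setting: not given in the sources used here. The authors deposited raw counts per gene for 22324 genes, with a coding type, and FPKM values, which equal the deposited count over gene length and library total and were used for gene lengths only. Libraries held 31206834 to 41971877 counts, and intervals and limits on a count of 0 cover counting error only. CPM was computed from the column totals. All 9 libraries entered 1 fit of edgeR 4.0.16 (R 4.3.3, TMM, filterByExpr, quasi-likelihood F test, Benjamini-Hochberg over 14956 genes), which all 209 members passed. On counts simulated for SEN and NC alone, a fit of only these 2 groups recovered 98% of 50 genes with a 2-fold change among 14366 genes. The simulation held no deviations by gene length, so it does not give the recovery of the fit of all 9 libraries. Library pairs within a group differed by more than sampling noise (chi-square per degree of freedom 3.41 to 31.6). The members and lists were chosen with earlier results of these data known. Named genes are members with a known function or name, the 5 largest rises and falls in each comparison, the 8 highest mean levels and those nearest the threshold. Other placeholder members were named outside this rule with their values known, among them LOC100363521, LOC100911864, LOC102556395 and LOC102550246. Gene neighbours and sequences came from RefSeq (GRCr8), which holds promoters of 131 members. Alternatives were other scalings, filters, DESeq2 1.42.0, other thresholds, a replicate block, a length trend and each library left out.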

Additional observations from a re-analysis of the deposited data

How the results depend on the processing

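Named members gave 1944 values recomputed under 18 other settings. Of these, 1845 kept their side of the threshold, 31 lost the call and 55 gained one. A further 13 turned in sign with a call in the main fit, the other setting or both. Values without a call in either are counted among the 1845 whatever their sign. With total counts alone, the turned values were -0.0648 and -0.0341 for LOC100911266 and LOC100911534 and -0.42 for LOC120102934 in SEN against NC, and 0.36, 0.47 and 0.28 for Pvt1, Thumpd3-as1 and LOC100911266 in BNPMT against SEN. With the length trend taken out, they were -0.24 for Hoxa11-as in BNPMT against SEN and, in BNPMT against NC, -0.11 for Mtln, -0.45 for LOC102549726, -0.49 for LOC100911177, 0.42 for LOC102556004, -0.47 for LOC100909539 and -0.26 for LOC100911266. Apart from what the scaling or trend itself changes, the cause was not tested.

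A threshold of 1 CPM gave 475 members and 10 CPM gave 67. Without the highest row the mean non-coding share was 0.2345% in BNPMT, 0.4741% in SEN and 0.2455% in NC, and over members only 0.2225%, 0.4979% and 0.282%. With each library left out, calls among the 128 numbered 103 to 109 in SEN against NC, 106 to 109 in BNPMT against SEN and 42 to 59 in BNPMT against NC. Deviations from the group means had correlations of -0.240 to 0.058 between same-numbered libraries. Those deviations followed gene length, so the correlations cannot show whether the numbers in the labels pair the libraries. With the replicate block 108 of the 128 members were called in SEN against NC, as without it, 107 in BNPMT against SEN and 49 in BNPMT against NC. Shares of all genes under these settings are not given. At these depths a count of 0 in a library allows up to 0.0715 to 0.0961 CPM, and with 3 libraries a group small changes of members near 3 CPM have wide errors.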
